A study of Sparassis latifolia with 15 samples.

Results

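The genes described here had higher RNA levels in primordia of Sparassis latifolia, the first visible buds of the fruiting body, than in its mycelium in the dark or after 1 h of light. They were chosen by their own RNA levels. Levels are given as CPM, the reads counted in a gene after the reads counted in all genes of that library were scaled to 1000000. A gene was a member where the mean CPM of primordia (P) was at least 3 times that of dark mycelium (D), the mean of lit mycelium (L) was below 1.5 times that of D, the lowest P library lay above every D and L library, and the highest D library reached at least 1 CPM. Genes of the study's own list of 30 key genes and its reference gene were left out. The rule gave 23 genes of 11118. All 9 libraries entered the rule, so the levels and ratios below describe the members and are no test of them.

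Libraries were made from strain SP-C, a single strain, grown on pine sawdust, with 3 RNA-seq libraries per group. Group D was mycelium kept in the dark for 28 d, group L was such mycelium after 1 h of white light, and group P was primordia that had formed when D mycelium was kept for 2 more weeks with 14 h of light per day. In the sample labels D is of day 28, L of day 30 and P of day 42, which for the age of L differs from the methods. Primordia thus differed from D in age, light and tissue at once, and these cannot be told apart. In such bulk samples, a higher level from more cells of a type and one from more RNA per cell cannot be told apart either.

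Fruiting bodies of mushroom-forming fungi start as small knots of hyphae that branch, aggregate and become primordia, in which tissues begin to differ. In many species light is needed for this step, and a blue light receptor complex of white collar proteins senses it. Some transcripts change soon after exposure to light, and others rise when the primordium forms. These kinds are not exclusive, and to which of them the members belong was not tested. The deposited tables pair no description with the gene IDs, and none of the IDs matched the reference table, which belongs to another strain (0 matches). The function of the members is therefore not given here, and genes are called by their IDs.

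The libraries held between 20798190 and 27706995 counts in genes, and each detected 10921 to 10991 genes. The fruiting body protein SC4 is a hydrophobin known from Schizophyllum commune to line air channels of the fruiting body. It stood at 34.3 to 218 CPM in D, 389 to 5540 CPM in L and 1689 to 14984 CPM in P. White collar 1, a blue light receptor, stood at 88.5 to 108 CPM in D, 213 to 434 CPM in L and 233 to 1067 CPM in P. In both genes every L library already lay above every D library. The study chose both on these libraries. Primordia replicate 2 stood apart from its group in all 3 genes checked. It held the 14984 CPM of SC4, the 233 CPM of white collar 1 and 651 CPM of the reference gene GAPDH, against 4385 and 2272 CPM of GAPDH in primordia replicates 1 and 3. SC4 was also highest and GAPDH lowest of their group in dark replicate 3 (218 and 1958 CPM) and in light replicate 2 (5540 and 891 CPM). White collar 1 differed, as it was highest of its group in light replicate 2 (434 CPM). Results that rest on primordia replicate 2 are given with and without it.

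The condition on L removed most candidates. Of all genes, 575 had a P mean of at least 3 times D, and 83 of them had an L mean below 1.5 times D. No overlap of P with either mycelium left 33, and the minimum in D left 23. None of the removed key genes met the other conditions (0 genes). The P/D ratio just inside the threshold was 3.13 (Gglean007203) and the one just outside was 2.97 (Gglean007260). The L/D ratio just inside was 1.496 (Gglean000199) and the one just outside was 1.504 (Gglean010907).

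**Figure D1:**
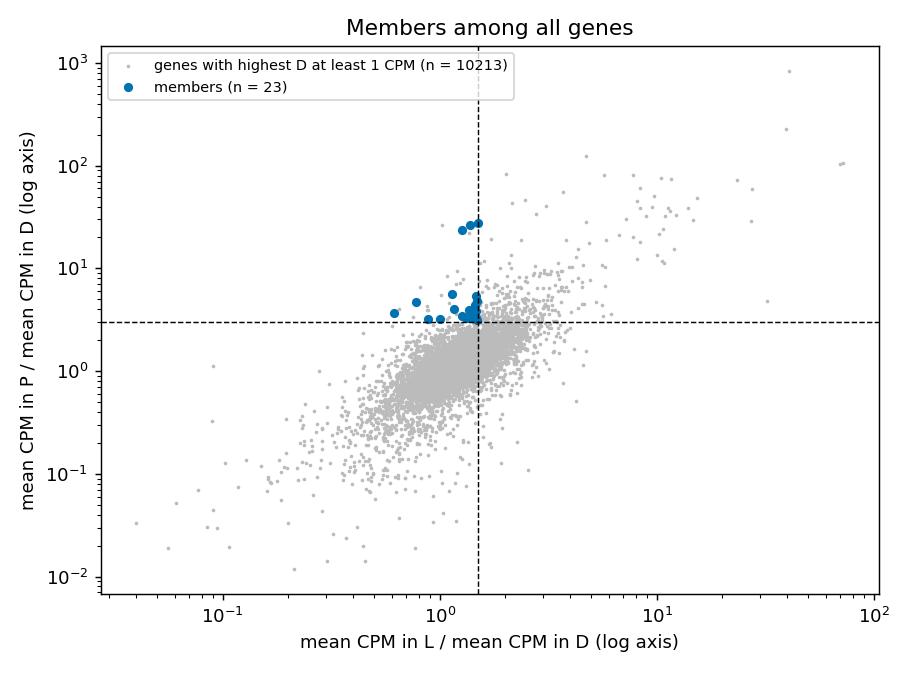
Ratio of the group means of P to D against that of L to D, both on log axes, for all genes with at least 1 CPM in a D library. Dashed lines mark ratios of 3 and 1.5, and the 23 members (blue) lie above and to the left of them, most of them close to the line for L.

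The members stood well above both mycelia in primordia, and on column totals most stood slightly higher in L than in D. The median P/D ratio was 3.85 (range 3.13 to 27.7), against 1.13 over all genes, and the median P/L ratio was 2.99 (range 2.11 to 19.0), against 0.952 over all genes. The median L/D ratio was 1.38 (range 0.618 to 1.496), against 1.17 over all genes. In 20 of the 23 the mean of L was above that of D, beside 8323 of all 11118 genes. The libraries of L and D overlapped in 21 of 23 members. In Gglean000213 and Gglean003469 every L library lay above every D library, a share to be read against 19.9% of all genes. In no member did every L library lie below every D library (0 of 23, against 3.48% of all genes). The label of a rise only in primordia therefore holds for these genes as the rule draws it, at a limit of 1.5 in L, and not as a flat level between D and L.

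The difference between L and D depended on the scaling. When libraries were scaled by TMM, which allows for a few abundant genes taking a larger share of the reads, the median log2 ratio of L to D over all genes moved by -0.22, and that of P to D by -0.12. The median L/D ratio of the members was then 1.195, and 17 of 23 lay above 1. Gglean004334, Gglean003481 and Gglean011419 turned from above to below 1, at 0.957, 0.997 and 0.860. Every L library then lay above every D library in Gglean003469 alone (1 member, beside 9.43% of all genes on this scaling), and below in Gglean004968 and Gglean011419 (2 members, beside 9.22%). All 23 kept a P/D ratio above 2.9, and the ratios of Gglean004968, Gglean011419 and Gglean007203 were then 2.995, 2.93 and 2.91, under the threshold of 3. The rule applied to TMM-scaled values gave 29 genes, which included 20 of the 23.

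**Figure D2:**
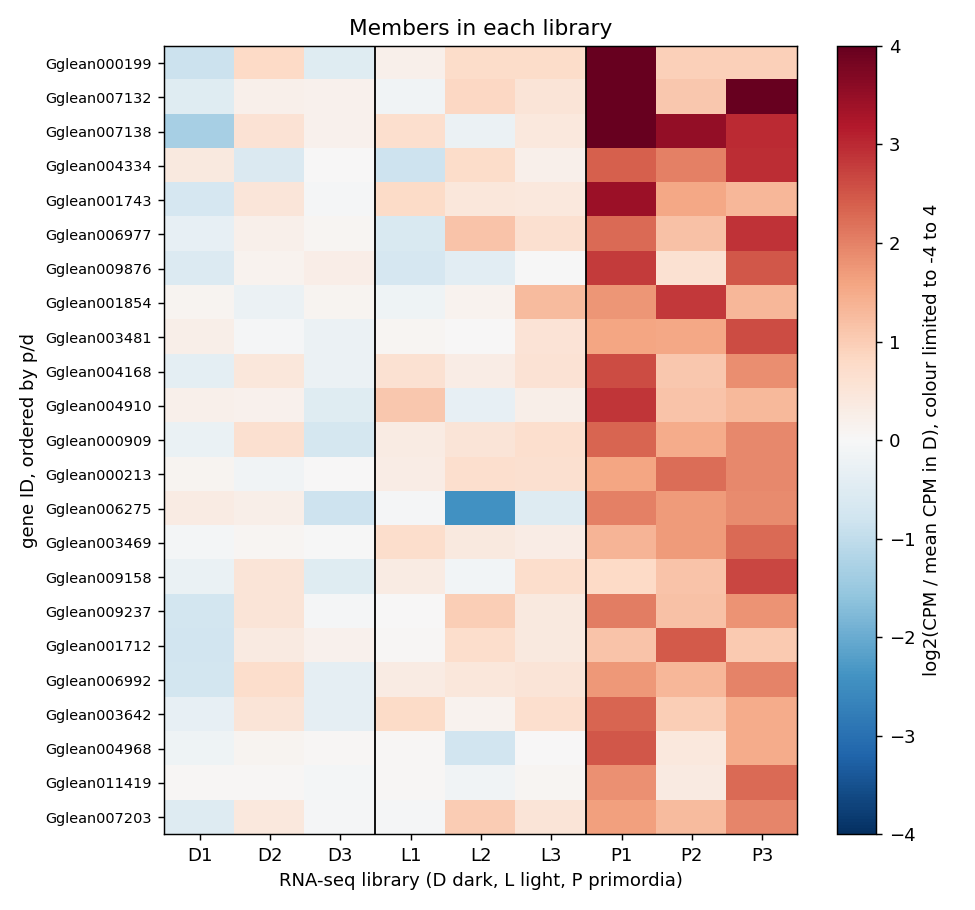
Level of each of the 23 members (rows, ordered by P/D ratio) in each of the 9 libraries (columns), as log2 of CPM over the mean CPM in D, with the colour limited to 4 either way. All members lie above the D mean in the 3 P libraries, but the depth of red differs between those libraries. Some P cells are pale, such as Gglean011419 and Gglean004968 in P replicate 2, at 1.29 and 1.35 times the D mean. D and L are mostly pale, with exceptions such as Gglean006275 in L replicate 2.

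The P/D ratios fell into a group of 3 above 20 and a group of 20 between 3 and 6, with none in between (0 members from 6 to 20). In the lower group, 14 members had a ratio below 4 and 6 had one of 4 to 6. The high group consisted of Gglean000199, Gglean007132 and Gglean007138, at P/D ratios of 27.7, 26.3 and 23.7. Each of these ratios fell below 20 when 1 primordia library was left out, to 1.92 in Gglean000199 and 9.705 in Gglean007138 without replicate 1 and to 11.01 in Gglean007132 without replicate 3.

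Gglean007138 was nearly silent in mycelium and was expressed in all primordia libraries. It stood at 0.294, 1.08 and 0.819 CPM in D, at 1.17, 0.616 and 0.989 CPM in L, and at 37.8, 8.38 and 5.83 CPM in P. D and L overlapped, and the lowest P library was 4.98 times the highest mycelial one, the widest such gap among the members. The group means were 0.732 ± 0.402, 0.925 ± 0.283 and 17.3 ± 17.8 CPM (SD, n = 3 per group), so that within P the SD was as large as the mean. Only 58 reads were counted for it over the D libraries together.

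Gglean007132 stood at 7.90, 12.9 and 12.6 CPM in D and at 10.1, 19.9 and 16.04 CPM in L. In P it stood at 222, 23.4 and 632 CPM. The primordia libraries differed by more than the mycelial groups did, and replicate 2 lay just above the highest L library. The P/D ratio was 29.4, 38.3 and 11.01 without primordia replicates 1, 2 and 3 in turn, and 2.104 in replicate 2 alone.

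Gglean000199 owed its ratio to a single library. It stood at 24.9, 77.9 and 31.8 CPM in D, at 51.5, 75.0 and 74.8 CPM in L, and at 3558, 86.3 and 86.2 CPM in P. Primordia replicates 2 and 3 lay only just above the highest D library, and replicate 1 was 41.2 times as high as the next. Without primordia replicate 1 the P/D ratio was 1.92, and the gene was no longer a member. It was also the member nearest to the limit in L, and that L/D ratio rested on dark replicate 2, as did those of other members given below. Without dark replicate 2 the ratio of Gglean000199 was 2.37, and without light replicate 1 it was 1.67, and in both cases the gene left the list.

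Gglean004334 had the largest P/D ratio (5.69) below the high group. This gene stood at 155, 79.8 and 120 CPM in D, at 67.1, 199 and 137 CPM in L, and at 618, 477 and 925 CPM in P. Its lowest P library was 2.39 times the highest mycelial one, and it kept its place under the rule whichever of the 9 libraries was left out. The SD between libraries was 37.8 CPM around a mean of 118 CPM in D, 66.0 around 134 in L and 229 around 673 in P (n = 3 per group).

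Gglean006275 had the lowest L/D ratio (0.618) and nearly equal primordia libraries. It stood at 24.3, 22.8 and 10.8 CPM in D, at 18.7, 3.62 and 13.5 CPM in L, and at 78.1, 63.4 and 72.1 CPM in P. The low mean of L came with light replicate 2, and D and L overlapped. The coefficient of variation in P was 10.4%, the lowest of the 23, against a median of 53.2% over the members and 31.9% over all genes.

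Gglean009876, like Gglean004334 and Gglean006275, met the rule whichever library was left out. It stood at 88.0, 141 and 154 CPM in D, at 79.3, 94.3 and 125 CPM in L, and at 888, 194 and 718 CPM in P. Its L/D ratio was 0.780, and its primordia replicate 2 was only 1.26 times the highest mycelial library. Gglean004968, with an L/D ratio of 0.881, was the other member whose mean was lower in L than in D. It stood at 370, 446 and 435 CPM in D, at 432, 246 and 423 CPM in L, and at 2341, 563 and 1158 CPM in P.

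Gglean006977 had the next highest fitted log2 ratio of L to D after Gglean000199 among members with at least 10 CPM in D. It stood at 46.4, 66.7 and 62.1 CPM in D, at 38.7, 130 and 91.8 CPM in L, and at 282, 133 and 433 CPM in P. Light replicate 1 lay below every D library and light replicate 2 nearly reached the lowest P library, which was 1.02 times as high. Its fitted log2 fold change in L vs. D was 0.36, and -0.0482 without light replicate 2.

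**Figure D3:**
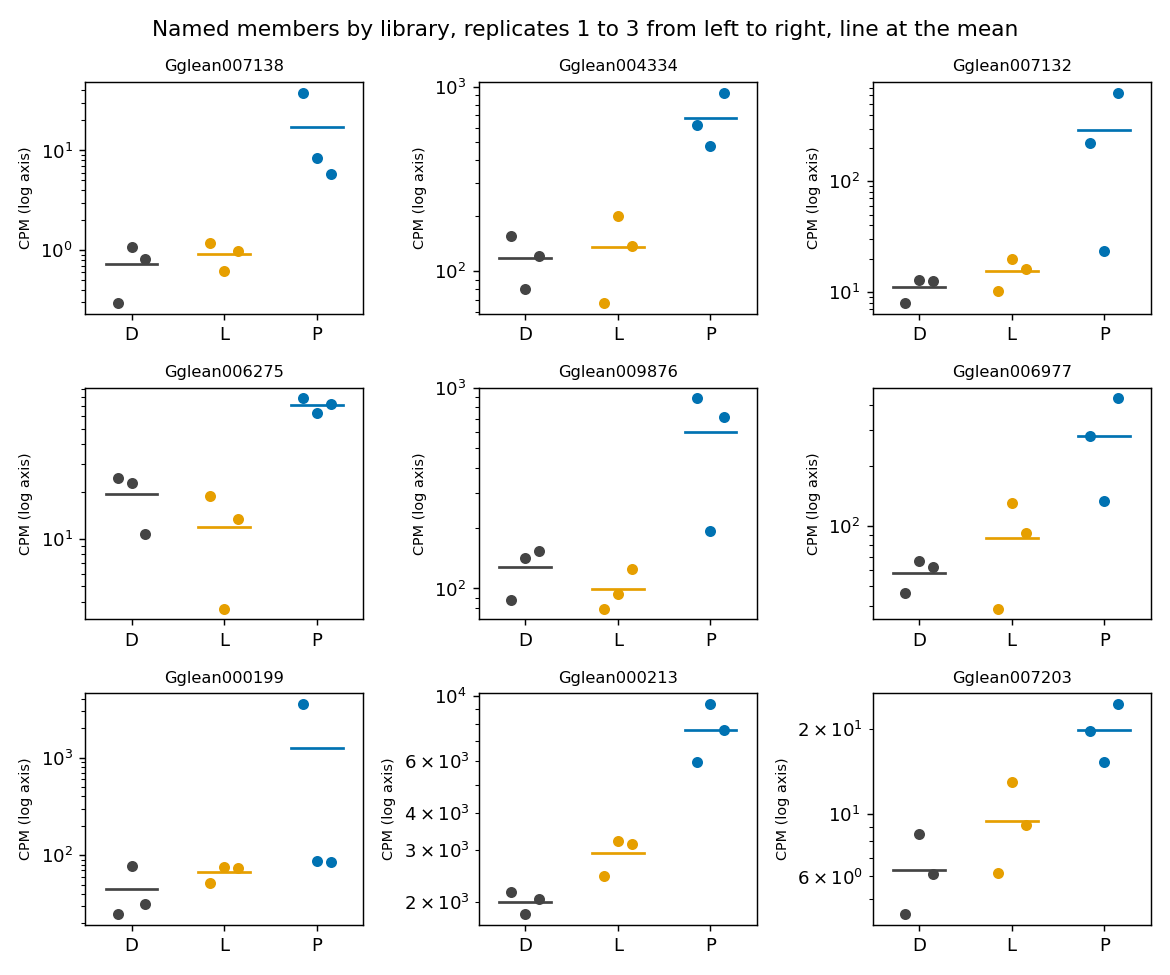
CPM of 9 members in each library on log axes, 1 panel per gene, with points for replicates 1 to 3 from left to right in dark mycelium (D), lit mycelium (L) and primordia (P) and a line at each group mean. Gglean000199 is high in primordia replicate 1 only (3558 against 86.3 and 86.2 CPM), whereas Gglean006275 holds 63.4 to 78.1 CPM in all 3.

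By level, the members ran from rare to among the most abundant transcripts. Mean levels in P were below 10 CPM in 4 members, 10 to 100 CPM in 9 and above 100 CPM in 10. Their median level was 71.2 CPM in P, 17.3 in L and 15.2 in D, against medians over all genes of 30.8, 33.4 and 28.8. Levels of different genes are per library and not per transcript length, since no lengths were at hand, so a higher CPM of 1 gene than of another is not a higher number of molecules.

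Gglean000213 was the most abundant member and stood at rank 3 of 11118 genes by mean CPM in P, and at rank 44 in D. It stood at 2165, 1822 and 2045 CPM in D, at 2460, 3233 and 3139 CPM in L, and at 5976, 9388 and 7666 CPM in P. The 3 groups did not overlap, and L lay between D and P at an L/D ratio of 1.46. The means were 2011 ± 174, 2944 ± 422 and 7677 ± 1706 CPM (SD, n = 3 per group). On TMM-scaled values its L/D ratio was 1.251, and its L libraries, at 2328 to 2979 CPM, then overlapped those of D, at 1866 to 2533 CPM. Of the reads counted in members, it took 58.6% to 67.7% in D and 39.1%, 79.4% and 58.2% in the 3 P libraries.

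Together the members took 0.311% to 0.321% of all counts in D and 0.359% to 0.447% of those in L. In primordia they took 1.18% to 1.53%. Without Gglean000213, their summed level was 1035 to 1285 CPM in D, 1132 to 1331 CPM in L, and 9308, 2432 and 5511 CPM in the 3 P libraries. The summed level of the other 22 members was thus about the same in both kinds of mycelium and differed widely between primordia, with replicate 2 lowest. Abundant members weigh most in these sums. Gglean004968 alone held 370 to 446 CPM in D, at an L/D ratio of 0.881, against a median of 1.38 over the members. Gglean000199 held 3558 of the 9308 CPM in primordia replicate 1, and 86.2 CPM in replicate 3.

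Primordia replicate 2 was the lowest of the 3 P libraries in 15 of the 23 members (65.2%), against 43.7% of all genes, and the highest in 3 members. Replicate 1 was the highest in 11 and replicate 3 in 9. Taken alone against the mean of D, replicate 2 gave a median ratio of 2.40, with 7 members at 3 or more, whereas replicate 1 gave 4.83 with 19 members and replicate 3 gave 3.81 with 16. The P mean without replicate 2 gave a median ratio of 4.20, and 21 members then had a ratio of at least 3. GAPDH was also lowest in replicate 2, as given above, and the part of that library's state in these values was not tested. The 3 members that were highest in replicate 2 were Gglean000213, Gglean001854 and Gglean001712. Gglean001712 stood at 121, 301 and 112 CPM in P and 32.3 to 70.4 CPM in D, and without replicate 2 its P/D ratio was 2.14.

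In 10 members the highest P library was more than 2 times the middle one, and in 10 it was at most 1.5 times. The rule was applied again with each of the 9 libraries left out. Only Gglean004334, Gglean006275 and Gglean009876 met it each time (3 of 23). Leaving out dark replicate 2 removed 12 of the members, each with an L/D ratio then above the limit of 1.5, from 1.55 (Gglean001712) to 2.37 (Gglean000199). Leaving out light replicate 1 removed 8, again each with an L/D ratio above 1.5, from 1.508 (Gglean000909) to 1.897 (Gglean006977). The low L/D ratio of many members thus rested on single libraries. Leaving out primordia replicate 2 removed 2 and added others to a total of 87 genes. The number of genes that met the rule was 36 without light replicate 2, and 84 without dark replicate 3, light replicate 2 and primordia replicate 2 together, a choice made after the values were seen.

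The remaining members had P/D ratios between 3 and 6. Gglean003481, at 1.01 to 1.39 CPM in D and 3.47 to 7.25 CPM in P, was the fourth member with a lowest P library at least 2 times any mycelial one, beside Gglean007138, Gglean004334 and Gglean006275. Gglean003469 had the steadiest D libraries, at 25.3, 27.7 and 26.3 CPM, and stood at 43.5, 34.8 and 32.8 CPM in L and 67.5, 85.5 and 128 CPM in P. Gglean011419 was level in mycelium on column totals, with 170 ± 8.59 CPM in the dark and 170 ± 14.7 CPM after light (SD, n = 3 per group), and stood at 598, 219 and 813 CPM in P. Its lowest P library was 1.22 times the highest mycelial one, and the median of this gap over the members was 1.26.

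No members had consecutive ID numbers (0 pairs), and 4 pairs lay within 20 numbers of each other, a window chosen after the values were seen. The sources used here do not say whether numbers follow the order of genes on the contigs. Of all genes with a count in D, 4.92% had a P/D ratio of 3 or more. Among genes numbered in between, 2 of 13 had such a ratio between Gglean000199 and Gglean000213. The count was 1 of 11 between Gglean003469 and Gglean003481, and 0 of 14 between Gglean006977 and Gglean006992. Between Gglean007132 and Gglean007138 it was 3 of 3, at ratios of 4.31 to 81.4. Gglean007139, the number after that pair, had a ratio of 19.4, and the next gene in both tables, Gglean007141, had one of 1.92. The stretch from Gglean007132 to Gglean007139 is described with its ends chosen after these values were seen, and 2 of its 6 genes are members by the rule.

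In that stretch the members lay beside genes that the condition on L had kept out. Gglean007136 stood at 2.98, 5.96 and 5.77 CPM in D, at 12.8, 48.9 and 22.2 CPM in L, and at 803, 142 and 252 CPM in P, with a P/D ratio of 81.4. Gglean007135 had a P/D ratio of 55.0, with means of 1.55 ± 0.689, 5.72 ± 3.03 and 85.4 ± 72.4 CPM in the 3 groups. Both were higher in every L library than in any D library, at L/D ratios of 5.70 and 3.69. Gglean007139 had means of 1.60 ± 0.714 CPM in D and 30.9 ± 34.9 CPM in P, with an L/D ratio of 1.72, and Gglean007137 was at 0.519 ± 0.303 and 2.24 ± 0.234 CPM (SD, n = 3 per group). Gglean007137 reached at most 0.866 CPM in D and so also missed the minimum of 1 CPM there. The L/D ratios of the 6 genes ran from 1.26 in Gglean007138 to 5.70, with 4 of them at 1.5 or more. Of the 12 genes numbered just before it, 2 had a P/D ratio of 3 or more, as did 2 of the 9 that follow up to Gglean007149. The share over all genes with a count in D was 4.92%. In 5 of the 6 genes primordia replicate 1 was the highest P library, and Gglean007132 was highest in replicate 3. Whether these genes overlap or share sequence, and whether strand was used in counting, is not given. An effect of how reads were assigned to these genes was not tested.

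**Figure D4:**
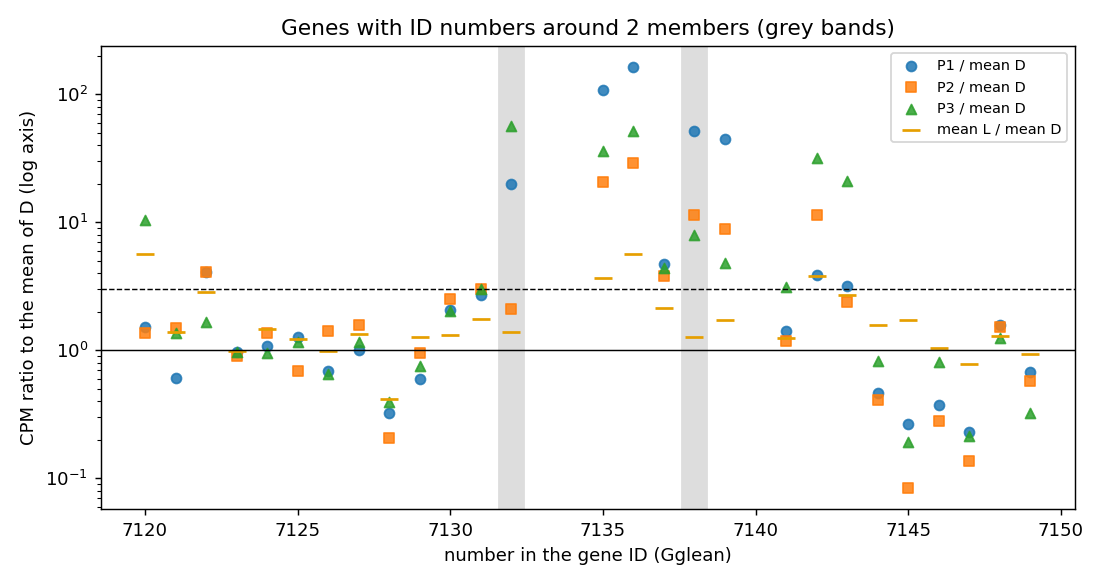
Level of genes numbered Gglean007120 to Gglean007149 in each primordia library and in the mean of L, as a ratio to the mean of D on a log axis, against the number in the gene ID, with members in grey bands, a solid line at 1 and a dashed line at 3. From Gglean007132 to Gglean007139 every primordia point lies above 3 but that of Gglean007132 in replicate 2, at 2.104, while the L/D ratios of the 2 members are 1.38 and 1.26.

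A test across all genes was run for each pair of groups with edgeR's quasi-likelihood test, with calls where the Benjamini-Hochberg adjusted p did not pass 0.05 and the fold change passed 1.2. All 23 members passed its filter on low counts. In P vs. D, 6 of the 23 were called higher, beside 1.33% of the genes tested, and these were Gglean007138, Gglean004334, Gglean006977, Gglean006275, Gglean003469 and Gglean007203. DESeq2 called 22 of 23, beside 4.67% of its genes, and the exception was Gglean000199. In P vs. L, edgeR called 0 of 23, beside 0.0187%, and 3 without primordia replicate 2 (beside 0.372%), whereas DESeq2 called 17, beside 1.38%. In L vs. D neither tool called a member (0 of 23), beside 0% by edgeR and 3.62% by DESeq2, and 0 members had an unadjusted p under 0.05 by edgeR, beside 12% of the genes tested. The rule used these contrasts, so the counts are given as a description. Lack of overlap of P with both mycelia, which the rule required, was found in 3.49% of all genes.

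The fitted log2 fold changes of the members had a median of 1.84 in P vs. D (range 1.55 to 4.71), of 1.68 in P vs. L (range 1.18 to 4.35) and 0.26 in L vs. D (range -0.92 to 0.39), against 0.07, 0.02 and 0.02 over all genes tested. In L vs. D, 18 members had a positive and 5 a negative value, with no member called. The median in L vs. D was 0.16 without dark replicate 1, 0.41 without dark replicate 2 and 0.46 with library totals in place of TMM, where that of all genes tested was 0.02, 0.03 and 0.23. The number of calls in P vs. D moved with single libraries. Without primordia replicate 2, edgeR called 17 of the 23, beside 3.79% of the genes tested. Without dark replicate 1 or dark replicate 3 it called 0, beside 0.187% and 0.384%. It called 2 without dark replicate 2, beside 0.562%, and 1 without primordia replicate 1, beside 0.676%. The share of all genes called thus moved in the same direction as the members' count in each of these fits.

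A further 75 genes met every condition of the rule except that on L, so that they stood higher in primordia and also at an L/D ratio of 1.5 or more. Their median L/D ratio was 2.14 and every L library lay above every D library in 56 of the 75, beside 19.9% of all genes, which the condition on L in part fixed. Their median P/D ratio was 6.04, against 3.85 in the members, while their median P/L ratio of 2.62 was near the 2.99 of the members. Their median level went from 8.28 CPM in the dark to 24.1 after light and 60.8 in primordia, against 15.2, 17.3 and 71.2 in the members. Primordia replicate 2 was the lowest P library in 38 of the 75 (50.7%), beside 43.7% of all genes. These differences between the lists follow at least in part from how they were drawn, and were not tested.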

How the data were processed

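RNA-seq counts of 9 libraries were used (3 groups, 3 replicates each). The authors trimmed reads with cutadapt, aligned them to the SP-C genome with STAR and deposited raw counts per gene from HTSeq 0.6.1. They also deposited a signal, the counts divided by a size factor per library. The log2 fold changes and p-values deposited by the authors come from their own comparisons and were not used. Peak lists of ATAC-seq were not analysed here, because no gene positions were at hand.

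CPM used the column totals of each table. The tables shared 11118 genes, and the 43 genes that each held alone were left out. The members and lists were chosen with earlier results of these data known. Tests used edgeR 4.0.16 (TMM, filterByExpr), with D and P or D and L libraries in a fit and all 9 for P vs. L, and DESeq2 1.42.0 as the alternative, in R 4.3.3. Adjusted p-values were computed over all genes tested, on libraries the study names biological replicates. The procedure was tested on simulated counts. Figures and tables used Python 3.11.15, pandas 2.3.3, numpy 2.4.6 and matplotlib 3.10.9.

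Named by rule were the 2 members with the largest log2 fold change in P vs. D (of those called) and in P vs. L (none was called), with at least 10 CPM in P, the 2 lowest and 2 highest in L vs. D with at least 10 CPM in D, the most abundant member, and the genes at the threshold of 3. Other IDs were named after their values were seen. Alternatives were other scalings, filters and thresholds of the rule, each library left out, all 9 libraries in a single fit, and the replicate number as a block. Deviations of L and P libraries from their group means correlated within each number (0.152, 0.535 and 0.363). Light replicate 1, however, correlated more with primordia replicate 3 (0.390), so that numbers paired these groups in part at most. Deviations of D with L (0.359, -0.353 and -0.249) and D with P (0.00503, -0.40 and -0.341) gave no pairing by number. Across numbers, dark replicate 3 correlated with light replicate 2 (0.637) and primordia replicate 2 (0.411), the libraries left out together above. Dark replicate 2 correlated with light replicate 3 (0.338) and primordia replicate 3 (0.347). The other values of D across numbers ran from -0.593 to 0.2385.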

Additional observations from a re-analysis of the deposited data

How the results depend on the processing

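The number of members was 66 at a P/D ratio of at least 2, 5 at a ratio of at least 5, 6 at a stricter limit of the L/D ratio and 52 at a limit of 2, and it ran from 16 to 87 when 1 library was left out, with 36 without light replicate 2 and 87 without primordia replicate 2. It was 84 without dark replicate 3, light replicate 2 and primordia replicate 2 together, a setting chosen after seeing the data. Members called higher in P vs. D were 6, and 22 by DESeq2 and 12 with all 9 libraries in a single fit (beside 2.07% of the genes tested), and 0 to 17 when 1 library was left out. With the replicate number as a block, 0 were called in P vs. D (beside 0.321%), where the numbers did not pair the samples and not every library correlated best with its own number. In P vs. L the block also gave 0 (beside 0.00934% of the genes tested). With the L and P libraries alone, a setting chosen after seeing the data, it gave 0 (beside 0%). The block changed no other count of calls. In P vs. L, DESeq2 called 17, and edgeR called 0 to 3 when 1 library was left out, with 3 without primordia replicate 2. The log2 fold change of Gglean006977 in L vs. D was 0.36, and ran from -0.0482 (without light replicate 2) to 0.7036 (without light replicate 1). The median log2 fold change of the members ran from 1.67 to 1.95 in P vs. D and from 1.55 to 1.91 in P vs. L over the alternatives run. In L vs. D it ran from 0.11 (without dark replicate 3 and light replicate 2 together) to 0.46 (library totals). The fewest reads over the D libraries, 58, were counted in Gglean007138.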
